A study of Homo sapiens with 18 samples.

Results

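The constant region genes of the immunoglobulin loci encode the part of an antibody chain that sets its class, and 10 of them are described here: IGHM, IGHD, IGHG1, IGHG2, IGHG3, IGHG4, IGHA1 and IGHA2 for the heavy chains, IGKC for the kappa light chain and IGLC2 for a lambda light chain. They were chosen by symbol among the 56609 rows of the count table, and all 10 passed the filter on low counts. The libraries came from HG3, MEC2 and PCL12, EBV-positive cell lines derived from chronic lymphocytic leukemia (CLL), of which MEC2 has mutated IGHV genes and the others do not. Each line gave 3 samples stimulated for 4 h with ODN-2006 (2.5 μg per ml), a synthetic oligonucleotide with CpG motifs that activates TLR9, and 3 unstimulated samples, 18 libraries in 6 groups. Each line is the culture of a single leukemia, so a difference between lines is a difference between these 3 cultures and not between IGHV classes. Nothing states that the replicates were separate cultures, so p-values measure the spread between these samples, which may be technical.

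A mature B cell that has not switched class transcribes IGHM and IGHD together from the same rearranged V region, as 1 precursor RNA that is spliced to one or the other, and its receptor is surface IgM and IgD. Class switch recombination joins the V region to a constant region further downstream, and germline transcripts of these downstream genes can also be made before a switch. A B cell normally uses either the kappa or the lambda light chain. CLL cells typically carry IgM and IgD at the surface, and less often IgG.

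In GENCODE 44 on GRCh38, the heavy chain members lie on the minus strand of chromosome 14 in the order IGHM, IGHD, IGHG3, IGHG1, IGHA1, IGHG2, IGHG4 and IGHA2 from the V side. IGHM is at chr14:105851705-105856218, IGHD at chr14:105836765-105845677, IGHG3 at chr14:105764503-105771405 and IGHG1 at chr14:105736343-105743071. IGHA1 follows at chr14:105703995-105708665, IGHG2 at chr14:105639559-105644790, IGHG4 at chr14:105620506-105626066 and IGHA2 at chr14:105583731-105588395. IGKC is a single exon of 523 bases at chr2:88857161-88857683, minus strand, and IGLC2 a single exon of 462 bases at chr22:22900976-22901437, plus strand. Several of these genes are near copies of each other, which bears on how far a count belongs to 1 gene. IGLC2 and its neighbor IGLC3 differ at 3 of 317 coding bases, and the first 120 coding bases of both, from chr22:22900976-22901095 and chr22:22906342-22906461, show the position in capitals at which they differ there.
IGLC2: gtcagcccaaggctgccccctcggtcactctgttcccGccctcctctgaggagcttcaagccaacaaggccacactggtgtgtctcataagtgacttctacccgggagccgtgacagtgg
IGLC3: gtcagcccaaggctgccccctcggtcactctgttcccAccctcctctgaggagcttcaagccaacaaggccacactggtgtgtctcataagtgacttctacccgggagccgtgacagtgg

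IGHA1 and IGHA2, the constant regions of IgA1 and IgA2, differ at 14 of 307 coding bases of exon 1. The first 120 bases of that exon, from chr14:105708546-105708665 and chr14:105588276-105588395 on the minus strand, carry the differing bases in capitals, so that reads across this stretch can be told apart.
IGHA1: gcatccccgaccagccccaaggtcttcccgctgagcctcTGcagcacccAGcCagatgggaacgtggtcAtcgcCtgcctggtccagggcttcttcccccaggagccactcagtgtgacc
IGHA2: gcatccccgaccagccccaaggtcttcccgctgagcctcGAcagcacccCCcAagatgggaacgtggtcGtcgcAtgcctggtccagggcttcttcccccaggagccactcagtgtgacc

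The IgG subclasses are most distinct at the hinge, the short exon that links the arms of the antibody to its stem. The hinge exons of IGHG1, IGHG2 and IGHG4, at chr14:105742341-105742385, chr14:105644068-105644103 and chr14:105625344-105625379 on the minus strand, are shown with in-frame cysteine codons (TGT or TGC) in capitals.
IGHG1: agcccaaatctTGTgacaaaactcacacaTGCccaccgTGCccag
IGHG2: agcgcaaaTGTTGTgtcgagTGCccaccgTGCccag
IGHG4: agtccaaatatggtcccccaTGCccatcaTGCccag
They hold 3, 4 and 2 such codons. Outside such stretches the genes are alike: of the 100-base windows within exons, 37.2% in IGHG1, 23.1% in IGHG3, 21.2% in IGHG2 and 16.7% in IGHG4 had an exact second copy in the genome. The share was 30.0% in IGLC2, 11.8% in IGHA2 and 9.85% in IGHA1, and 0% in IGHM, IGHD and IGKC. The window length is the read length in the study's methods, with reads taken along the whole transcript; for a kit that reads 3′ ends, which the labels name, these shares would not describe the counted stretch. How the authors counted reads with several matches is not given in the sources used here, so the split of counts among IGHG genes, between IGHA1 and IGHA2, and between IGLC2 and IGLC3 is uncertain.

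**Figure D1:**
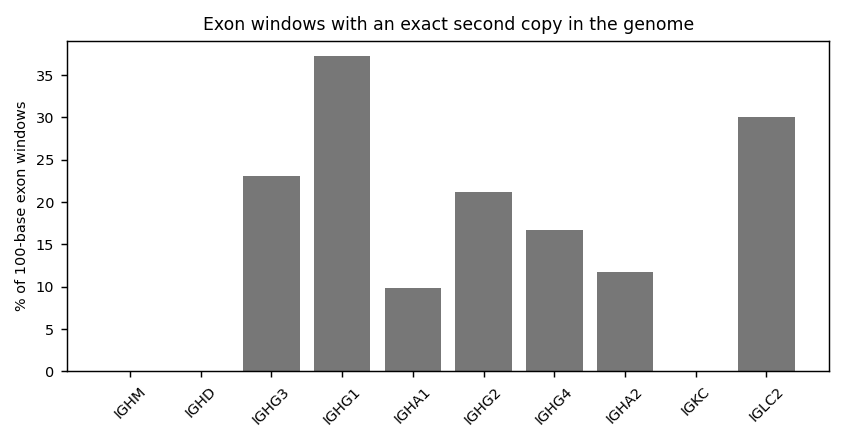
Bars give, for each of the 10 genes, the percentage of 100-base windows within its exons that occur a second time in the genome with no mismatch. IGHM, IGHD and IGKC have none, and IGHG1 has the highest share at 37.2%.

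The libraries held 20382943 to 67308932 counts, and 3 counts, the limit that a count of 0 allows, correspond to 0.0429 to 0.155 CPM by library, where CPM is the usual count relative to library size. These limits, and the intervals below, cover counting error only. Immunoglobulin constant region genes took 0.456% to 1.90% of the counts. A pair of libraries was rich in mitochondrial counts, namely replicate 2 of unstimulated HG3 (20.2%) and replicate 2 of stimulated MEC2 (19.7%), where the range elsewhere was 2.82% to 9.28%. B-cell markers were present in all groups, with a summed level of 2733 to 5913 CPM over 9 genes and none at 0, against 36.1 to 141 CPM for 6 T-cell markers, 1.05 to 11.6 CPM for 5 NK-cell markers and 0.609 to 3.86 CPM for 6 monocyte markers. Of the T-cell and the monocyte markers, 1 or 2 were at 0 throughout each group. The 6 plasma-cell markers, MZB1 among them, summed to 1624 to 3188 CPM in unstimulated HG3 and to 1261 to 1873 CPM in the other unstimulated lines, with none at 0 in any group. PCL12 replicates 2 and 3 held MEC2 transcripts: 45 genes other than immunoglobulin genes, chosen as high in MEC2 and at no more than 10% of that level in PCL12 replicate 1, had a median of 29.0% to 31.3% of the MEC2 level in those 4 libraries. PCL12 replicate 1 is therefore given apart, also beside means over the 3 PCL12 replicates, and CPM values use TMM factors unless stated.

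The light chain divided the lines. HG3 used lambda, and MEC2 and PCL12 used kappa. IGLC2 was at 2660, 1871 and 982 CPM in CpG-stimulated HG3 replicates 1, 2 and 3, while unstimulated HG3 had 2348, 3900 and 989 CPM. In MEC2 it had 3 counts in CpG-stimulated replicate 1, 4 counts in unstimulated replicate 1 and 0 in the other 4 libraries, which allows up to 0.147 CPM in the shallowest of them. All HG3 libraries thus lay above all MEC2 libraries, with no overlap between the lines. IGKC showed the opposite order: 4 to 34 counts in the 6 HG3 libraries (0.105 to 1.60 CPM), 911 to 2473 CPM in MEC2 and 2665 to 5444 CPM in PCL12. PCL12 replicate 1 had 5444 CPM unstimulated and 4304 CPM after CpG. Of all counts on kappa and lambda constant genes, lambda took 99.97% to 99.99% in HG3, and kappa took 99.98% to 100% in MEC2 and 99.8% to 99.9% in PCL12.

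Per kilobase of exon, IGLC2 in unstimulated HG3 had a level of 5221 ± 3153 CPM per kb and IGKC in unstimulated MEC2 had 4042 ± 660 CPM per kb (SD, n = 3 each). The IGLC2 level leaves out IGLC3 and is thus a part of the lambda level, while IGKC is all of kappa. IGKC in unstimulated PCL12 was at 7076 ± 2903 CPM per kb (SD, n = 3), with 10410 CPM per kb in replicate 1. Its 3 libraries lay above those of MEC2, and they overlapped those of IGLC2 in HG3, which replicate 1 exceeded. Light chain counts per 100 heavy chain counts, not scaled by length, were 76.2 ± 38.9, 42.1 ± 13.3 and 38.4 ± 3.17 in unstimulated HG3, MEC2 and PCL12 (SD, n = 3 each). PCL12 replicate 1 had 40.5. IGLC3 stood at 85.2 ± 3.60 counts per 100 IGLC2 counts in CpG-stimulated HG3 and at 88.1 ± 6.24 in unstimulated HG3 (SD, n = 3 each), while IGLC1 had 0 counts in all 18 libraries. All 460 exon bases of IGLC1 lie inside exons of IGLL5, so that its reads could not be counted for 1 gene alone. PCL12 had a small lambda signal, with IGLC2 at 6.57 and 5.26 CPM in CpG-stimulated and unstimulated replicate 1 and 1.79 to 3.12 CPM in replicates 2 and 3. In these PCL12 libraries IGLL5 had more counts than IGLC2, not scaled by length, with means of 393 and 454 IGLL5 counts per 100 IGLC2 counts in the CpG-stimulated and unstimulated groups and 312 and 374 in replicate 1.

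**Figure D2:**
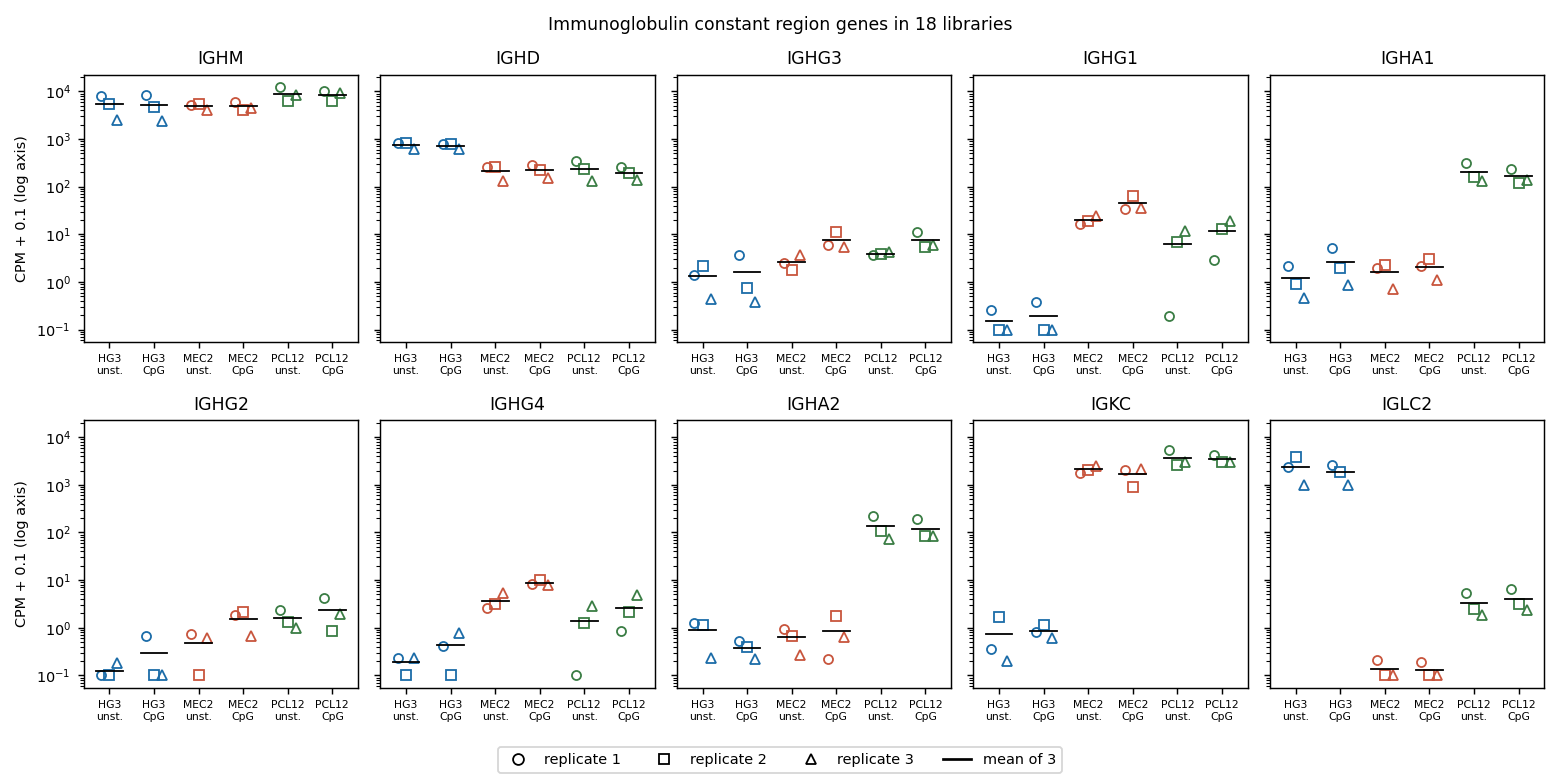
Each panel shows 1 gene, with CPM plus 0.1 on a log axis against the 6 groups (unst., unstimulated); points are libraries, marked by replicate number, and lines are means of 3. IGKC and IGLC2 change places between HG3 and the other lines, IGHA1 and IGHA2 are high only in PCL12 among the 3 lines, and IGHG1 in PCL12 replicate 1 lies below replicates 2 and 3.

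IGHM, the heavy chain of IgM, was the highest heavy chain gene in all 18 libraries, also per kilobase of exon. It was at 8181, 5419 and 2455 CPM in unstimulated HG3 replicates 1, 2 and 3, and at 8487, 4697 and 2368 CPM after CpG. The libraries of a replicate number were alike in both treatments, and the replicate numbers differed up to 3.58-fold. MEC2 varied less, at 5072, 5551 and 4126 CPM unstimulated and 6049, 4087 and 4390 CPM after CpG. In PCL12, the values were 12565 and 9971 CPM in unstimulated and CpG-stimulated replicate 1, and 6171 to 9279 CPM in replicates 2 and 3. The unstimulated lines did not differ in IGHM past the main test, with a log2 difference of -0.12 (SE 0.40) between MEC2 and HG3, 0.75 (SE 0.40) between PCL12 and HG3, and -0.87 (SE 0.40) between MEC2 and PCL12. Fits with the replicate number as a block, given below, called IGHM lower in MEC2 than in PCL12.

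IGHD, the heavy chain of IgD, was higher in HG3, with 775, 793 and 608 CPM after CpG and 821, 834 and 618 CPM unstimulated. MEC2 had 132 to 291 CPM and PCL12 had 129 to 350 CPM, so both lay below every HG3 library and overlapped each other. PCL12 replicate 1 had 350 CPM unstimulated and 255 CPM after CpG. Unlike IGHM, IGHD in HG3 varied only 1.37-fold between libraries. The ratio of the pair moved with the replicate number: IGHD counts per 100 IGHM counts were 10.0, 15.4 and 25.2 in unstimulated HG3 replicates 1, 2 and 3. After CpG the same ratio was 9.14, 16.9 and 25.7. It was 3.20 to 5.51 in MEC2 and 1.52 to 3.81 in PCL12 (2.78 and 2.55 in unstimulated and CpG-stimulated replicate 1), below all HG3 libraries. In an exact permutation test (2-sided), the difference between unstimulated HG3 and MEC2 or PCL12 had p = 0.1, the smallest value that 3 against 3 allows, and p = 0.289 after adjustment over 26 comparisons of shares and ratios. Within each line, CpG-stimulated and unstimulated samples overlapped in this ratio.

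**Figure D3:**
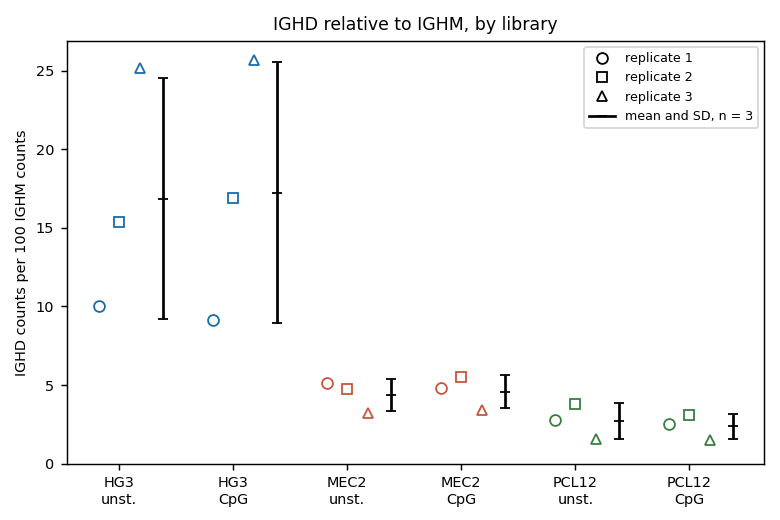
IGHD counts per 100 IGHM counts (y axis, from 0) in the 18 libraries, by group (unst., unstimulated) and replicate number, with mean and SD of 3 libraries. HG3 spans 9.14 to 25.7 and keeps its order of replicate numbers in both treatments, and the other lines stay at or below 5.51.

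Downstream heavy chain classes made up a small part of the heavy chain counts (the 8 members and IGHE, the IgE gene) and differed in kind between the lines. In unstimulated cells, the IGHG and IGHA genes and IGHE together took 0.0593% ± 0.00865 of them in HG3, 0.805% ± 0.291 in MEC2 and 3.68% ± 0.879 in PCL12 (SD, n = 3 each). Gamma genes alone took 0.529% ± 0.210 in MEC2 and alpha genes alone 3.44% ± 0.952 in PCL12 (SD, n = 3 each). In unstimulated PCL12 replicate 1 alone, the downstream classes took 4.04%, with alpha at 4.00% and gamma at 0.0436%. Since RNA was taken from whole cultures, a few cells with a high level and many cells with a low level of such a transcript cannot be told apart.

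IGHG1, the heavy chain of IgG1, was at 16.6, 18.7 and 23.9 CPM in unstimulated MEC2 replicates 1, 2 and 3, and at 33.8, 64.8 and 34.7 CPM after CpG. The groups did not overlap. Of all genes, 2.52% were higher after CpG in MEC2 without overlap. The MEC2 library with 19.7% mitochondrial counts held the highest MEC2 value of IGHG1, IGHG3 and IGHG4 and the lowest of IGKC. HG3 had 7 counts in unstimulated and 11 in CpG-stimulated replicate 1, and 0 in its other 4 libraries. In PCL12 replicate 1, IGHG1 had 3 counts unstimulated (0.0962 CPM) and 196 counts after CpG (2.80 CPM). In replicates 2 and 3 it was at 6.67 and 11.6 CPM unstimulated and at 12.7 and 18.6 CPM after CpG, above both libraries of replicate 1.

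IGHG4 was at 2.46, 3.10 and 5.16 CPM in unstimulated MEC2 and at 8.25, 10.0 and 7.96 CPM after CpG. IGHG3 was at 2.38, 1.71 and 3.65 CPM unstimulated and at 5.79, 10.9 and 5.33 CPM after CpG. For both genes the MEC2 groups did not overlap, where 2.52% of all genes were higher after CpG without overlap. IGHG2 stayed at or below 2.07 CPM in MEC2 and at or below 4.15 CPM in PCL12, and 4 of the 6 HG3 libraries had no count of it. IGHG3 in PCL12 was at 3.49, 3.71 and 4.09 CPM unstimulated and at 10.9, 5.29 and 5.81 CPM after CpG. These groups did not overlap, where 2.53% of all genes were higher after CpG without overlap. The highest value was in replicate 1, where the genes chosen to follow MEC2 were low by choice. In HG3, IGHG3 spanned 0.284 to 3.58 CPM and its groups overlapped.

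IGHA1 and IGHA2 were both high in PCL12 only. IGHA1 was at 316 and 240 CPM in unstimulated and CpG-stimulated PCL12 replicate 1, and at 120 to 158 CPM in replicates 2 and 3. IGHA2 was at 222 and 192 CPM in replicate 1 and at 73.7 to 109 CPM in replicates 2 and 3. No library of the other lines exceeded 5.07 CPM for IGHA1 or 1.65 CPM for IGHA2, so the levels were separated in every library. PCL12 had 65.4 ± 7.07 IGHA2 counts per 100 IGHA1 counts unstimulated and 70.8 ± 9.36 after CpG (SD, n = 3 each), with 70.2 and 79.8 in replicate 1. Alpha genes took 2.27% to 4.05% of the heavy chain counts, IGHE included, in PCL12, while IGHM and IGHD took 95.7% to 97.3%.

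The MEC2 transcripts in PCL12 replicates 2 and 3 bear on both sets of genes, and the percentages in this paragraph use library totals. IGHG1 in these 4 libraries stood at 31.4% to 59.0% of the MEC2 mean of the same treatment, and IGHG4 at 25.8% to 76.8%, against 0.483% and 6.77% for IGHG1 and 0% and 9.39% for IGHG4 in unstimulated and CpG-stimulated replicate 1. The other gamma genes did not share this order: IGHG2 in replicates 2 and 3 was at 18.1% to 58.7% of replicate 1 of the same treatment, and IGHG3 at 49.3% and 54.2% after CpG and at 117% and 119% unstimulated. IGHE, which is no member and was chosen after its values were seen, stood at 72.4% to 123%, above the interquartile range of the 45 genes in all 4 libraries. Genes of PCL12 itself moved the other way: IGHA1 was at 41.4% to 58.1%, IGHA2 at 33.8% to 54.1% and IGLC2 at 34.6% to 50.8% of PCL12 replicate 1 of the same treatment. The 32 genes other than immunoglobulin genes that were chosen as high in PCL12 replicate 1 and low in MEC2 had medians of 67.7% to 79.5% of their mean in the replicate 1 pair. IGHA1, IGHA2 and IGLC2 thus lay at or below the median of those genes in each library. The part of the MEC2 transcripts in each of these values was not tested.

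**Figure D4:**
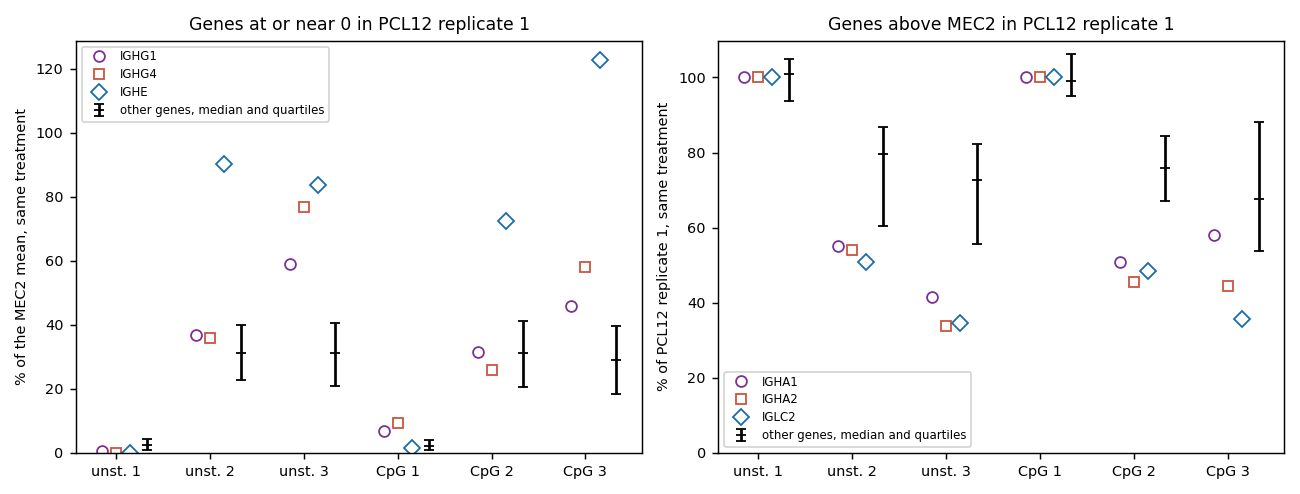
Levels in the 6 PCL12 libraries (unst., unstimulated; the digit is the replicate number), as % of the MEC2 mean (left; IGHG1, IGHG4 and IGHE) or as % of PCL12 replicate 1 (right; IGHA1, IGHA2 and IGLC2). Black bars give the median and quartiles of 45 genes chosen for MEC2 (left) or 32 chosen for PCL12 replicate 1 (right), relative to all 6 MEC2 libraries or both replicate 1 libraries; IGHG1, IGHG4 and IGHE lie higher, and IGHA1, IGHA2 and IGLC2 lower, in replicates 2 and 3 than in replicate 1.

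The first set of tests asked which members differed between unstimulated lines (edgeR's quasi-likelihood test, Benjamini-Hochberg over 31872 genes, adjusted p under 0.05). Between MEC2 and HG3, 5 of 10 members were called, against 9.78% of all genes (4.81% higher and 4.97% lower in MEC2). IGKC was higher in MEC2 by a log2 difference of 11.90 (SE 0.82, adjusted p = 2.61e-08), IGHG1 by 8.18 (SE 1.65, adjusted p = 0.00578) and IGHG4 by 5.13 (SE 1.32, adjusted p = 0.0164). IGLC2 was lower by a log2 difference of -15.69 (SE 1.11, adjusted p = 1.69e-07) and IGHD by -1.80 (SE 0.33, adjusted p = 0.000472). IGHG1 rested on 7 counts in a single HG3 library and spanned 7.57 to 12.42 with 1 library left out, the highest without that library, and the large differences of near-absent genes depend on the prior count. The call of IGHG4 was lost when any 1 of the 3 unstimulated HG3 libraries was left out (log2 difference 4.75 to 5.47, adjusted p = 0.0568 to 0.0674).

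Between PCL12 and HG3, 7 of 10 members were called, against 9.44% of all genes (4.87% higher and 4.57% lower in PCL12). IGKC (log2 difference 12.71, SE 0.84), IGHA1 (7.47, SE 0.90) and IGHA2 (7.44, SE 0.98) were higher in PCL12, with adjusted p of 1.53e-08, 7.11e-05 and 0.000181. IGLC2 (-9.58, SE 0.84, adjusted p = 1.53e-06) and IGHD (-1.67, SE 0.33, adjusted p = 0.00103) were lower. IGHG1 (6.49, SE 1.60, adjusted p = 0.0204) and IGHG2 (5.50, SE 1.54, adjusted p = 0.0210) were also higher. For IGHG2, 144 counts in PCL12 stood against 3 in HG3, a ratio of 48.3 with an exact 95% counting interval of 16.2 to 237. With PCL12 replicate 1 as the only PCL12 pair, where the lone library is assumed to vary like the other groups, 4 of 10 were called (4.35% of all genes): IGKC, IGHA1, IGHA2 and IGLC2. IGHG1 then rested on 3 PCL12 counts (adjusted p = 1), IGHD differed by -1.10 (adjusted p = 0.261) and IGHG2 by 6.16 (adjusted p = 0.0746). IGHG1 was also lost without unstimulated HG3 replicate 1, 2 or 3 or PCL12 replicate 3 (adjusted p = 0.0518 to 0.0836), and IGHG2 without HG3 replicate 1 or 2 or PCL12 replicate 1 (adjusted p = 0.0567 to 0.0835). With 1 library left out the differences still spanned 5.64 to 10.71 for IGHG1 and 4.88 to 8.67 for IGHG2, the highest being fits in which both remaining unstimulated HG3 libraries were at 0, whose size depends on the prior count. IGHG4, at 3.68 (SE 1.27, adjusted p = 0.0828), was called without PCL12 replicate 1 (adjusted p = 0.00478) while in PCL12 replicate 1 it had 0 counts, so that its direction turned with replicate 1 as the only PCL12 pair.

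Between MEC2 and PCL12, 3 of 10 members were called, against 2.05% of all genes (0.524% higher and 1.53% lower in MEC2), and all 3 were lower in MEC2. IGHA2 differed by -7.98 (SE 1.02, adjusted p = 0.000628), IGHA1 by -7.05 (SE 0.88, adjusted p = 0.000496) and IGLC2 by -6.11 (SE 1.01, adjusted p = 0.00355) on the log2 scale. IGLC2 rested on 4 counts in 1 unstimulated MEC2 library: with 1 library left out it spanned -9.79 to -5.50 here and -19.38 to -15.08 between MEC2 and HG3. IGHG1 was at 1.69 (SE 1.11, adjusted p = 0.603). With PCL12 replicate 1 alone, 5 of 10 were called (1.98% of all genes), since IGHG1 (adjusted p = 0.0267) and IGHG4 (adjusted p = 0.0243) joined them as higher in MEC2, with 3 and 0 counts in that PCL12 library. With the replicate number as a block, 7 of 10 were called (8.04% of all genes; limma-voom also 7, 7.08% of all genes). The members added were IGHM (-0.82, adjusted p = 0.00779) and IGKC (-0.72, adjusted p = 0.0171), lower in MEC2, and IGHG1 (2.65) and IGHG4 (2.35, adjusted p = 0.00161), higher in MEC2, in both tools. The block is nested within a line, so this fit takes the spread between replicate numbers out of the error of a difference between lines. Under a second rule, an unadjusted p under 0.01 with a log2 difference of at least 1, the same comparisons called 5 (10.4% of all genes), 8 (10.4%) and 3 (3.9%) of 10 members, with IGHG4 between PCL12 and HG3 added.

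The second set of tests asked whether 4 h of CpG changed the members. No member was called in HG3, MEC2 or PCL12, where 0.00314%, 0.00314% and 0% of all genes were called. The second rule also called none, against 0.496%, 0.251% and 0.116% of all genes. At an unadjusted p under 0.05, edgeR and DESeq2 had 1 member in MEC2 and 0 in the other lines, and limma-voom had 2 in MEC2 and 0 in the others. Over all genes, edgeR had 3.73%, 2.46% and 2.09% at that threshold in HG3, MEC2 and PCL12, and of 31872 genes DESeq2 had 614 and limma-voom 926 in MEC2. That gene was IGHG3 in MEC2 by edgeR, with a log2 fold change of 1.51 (SE 0.67, adjusted p = 1). IGHM changed by -0.05, -0.02 and -0.07 in HG3, MEC2 and PCL12 (SE 0.40 in each line). CpG-stimulated and unstimulated samples did not overlap for IGHG1, IGHG3 and IGHG4 in MEC2, for IGHG3 in PCL12 and for no member in HG3, where 4.72%, 4.55% and 3.72% of all genes did not overlap. These members were higher after CpG. Of all genes, 2.52% in MEC2, 2.53% in PCL12 and 2.14% in HG3 were higher without overlap. The 4 gamma genes had positive fold changes in all 3 lines, between 0.32 and 2.63 on the log2 scale. The sign was not stable in HG3, where IGHG1 rested on 11 against 7 counts in 1 replicate: with 1 library left out, IGHG1 spanned -4.25 to 4.89, IGHG2 -3.17 to 5.80 and IGHG3 -1.38 to 0.88. In PCL12, IGHG2 reached -0.19 in this way, and with the replicate block IGHG3 in HG3 was at -0.094. They share part of their sequence, so they are not 4 independent measurements. The median log2 fold change of the 10 members was 0.38, 0.51 and 0.14 in HG3, MEC2 and PCL12, beside 0, 0 and 0.02 over all genes.

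**Figure D5:**
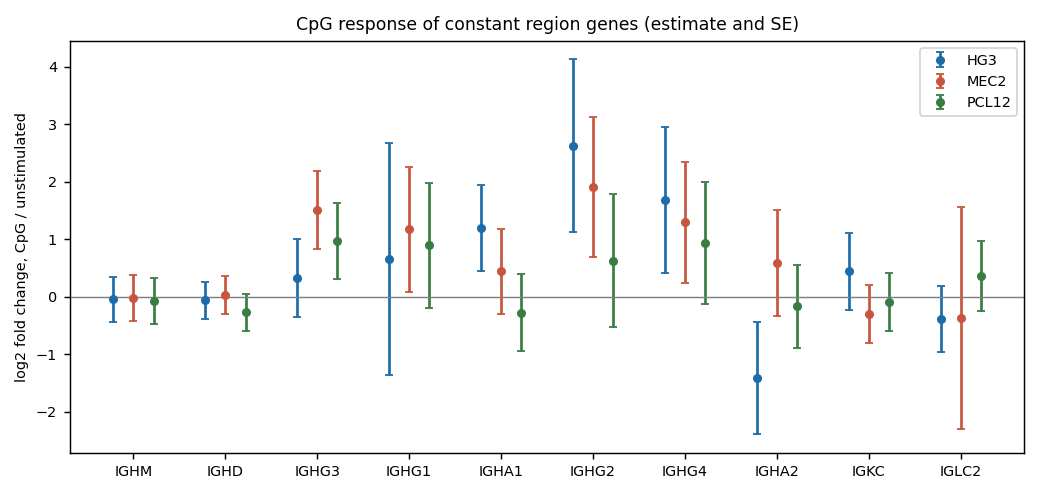
Log2 fold change of CpG-stimulated against unstimulated samples for each member in HG3, MEC2 and PCL12 (edgeR, points) with its SE (bars). IGHM and IGHD lie near 0 in every line, and the gamma genes lie above 0 with wide bars.

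Since each replicate series held a stimulated and an unstimulated sample, the same test was run with the replicate number of each line as a block. It called 1 member in each line: IGHA1 in HG3 (log2 fold change 1.19, adjusted p = 0.0146), IGHG1 in MEC2 (1.12, adjusted p = 0.0252) and IGHG1 in PCL12 (1.53, adjusted p = 0.00208), against 0.135%, 0.333% and 0.0471% of all genes. At an unadjusted p under 0.05, edgeR with the block had 3, 4 and 2 members in HG3, MEC2 and PCL12, against 1143, 1086 and 539 of 31872 genes. Of the 3 calls, IGHA1 in HG3 went from 95, 16 and 14 counts unstimulated to 194, 61 and 24 counts after CpG. The log2 CPM ratios (prior count 2) of IGHG1 within PCL12 replicates 1, 2 and 3 were 4.22, 0.93 and 0.69. Without the block and with 1 library left out, the fold change of IGHG1 in PCL12 spanned 0.32 to 1.73. limma-voom with the same block called none of the 3 (adjusted p = 0.992, 0.407 and 1.00), against 0%, 0.0251% and 0.00941% of all genes. In PCL12 replicate 1 alone, the 196 counts of IGHG1 after CpG against 3 unstimulated gave a CPM ratio of 29.2 with an exact 95% counting interval of 9.83 to 143, a single pair with no replicate (adjusted p = 1 in that fit). In the fit with no block, the fold change of IGHG1 in MEC2 was 0.79 without the libraries rich in mitochondrial counts, in place of 1.17, and was called in neither. The block was not fitted without these libraries.

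Differences of the CpG response between lines were tested for all members in 3 pairs of lines. None of 30 was called, and none had an unadjusted p under 0.05, where 0%, 0.00314% and 0% of all genes were called, and 4.10%, 4.16% and 3.23% had such an unadjusted p, for MEC2 minus HG3, PCL12 minus HG3 and MEC2 minus PCL12. The second rule called none either, against 0.543%, 0.489% and 0.286% of all genes. A p that misses the threshold does not show that the lines responded alike. In edgeR with the replicate block, 3 members had an unadjusted p under 0.05 for PCL12 minus HG3, against 762 of 31872 genes. With the replicate block, IGHA1 differed between PCL12 and HG3 (-1.42, adjusted p = 0.0461, 0.069% of all genes called), and limma-voom with the same block did not call it (-1.45, adjusted p = 1.00; 0 of 31872 genes called).

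Genes that act with immunoglobulin chains were read from 5 lists. In the CpG comparisons no gene of the lists passed an adjusted p of 0.05. Under the second rule 1 did, BATF in MEC2, where that rule called 0.251% of all genes. For class switch recombination (20 genes tested), BATF, a transcription factor, was at 1.02 (SE 0.36) in MEC2 and 0.86 (SE 0.35) in PCL12, with an adjusted p of 1 in both. For assembly and secretion (20 genes tested), ELL2, an elongation factor linked to the secreted form of the heavy chain, was at 0.46 (SE 0.32), 0.58 (SE 0.32) and 0.61 (SE 0.32) in HG3, MEC2 and PCL12. Among transcription factors of immunoglobulin genes (15 tested), IKZF1 in MEC2 was at 0.69 (SE 0.31). Among receptor partners (11 tested), CD79B, a signaling chain of the receptor, was at -0.57 (SE 0.28) in MEC2 and CD79A, its partner chain, at -0.38 (SE 0.32) in HG3.

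Between unstimulated lines, the list counts stand beside 9.78% (MEC2 against HG3), 9.44% (PCL12 against HG3) and 2.05% (MEC2 against PCL12) of all genes called, and several lie at or near these shares. Class switch genes were called higher in 3 of 20 tested genes in MEC2 against HG3, in 2 of 20 in PCL12 against HG3 and in 1 of 20 in MEC2 against PCL12, and none lower. EXO1, an exonuclease of DNA repair, was higher than in HG3 by 1.69 (SE 0.31, adjusted p = 0.000376) in MEC2 and by 1.17 (SE 0.30, adjusted p = 0.0116) in PCL12. The list's median log2 difference was 0.54, 0.47 and 0.06 in these comparisons, beside 0 over all genes. Transcription factors were called higher in 3 of 15 genes in MEC2 and in 5 of 15 in PCL12 against HG3, with 1 lower in PCL12 and none called between MEC2 and PCL12 (median 0.65, 0.79 and -0.13). PAX5, a factor that maintains B-cell identity, was higher by 1.60 (SE 0.30) and 1.46 (SE 0.30). Among receptor partners, 2 of 11 in MEC2 and 4 of 11 in PCL12 were higher than in HG3 and none lower, with none called between MEC2 and PCL12 (median 0.24, 0.46 and -0.11). SYK, a kinase of the receptor, was higher by 1.53 (SE 0.36) and 1.58 (SE 0.36). Of 20 assembly and secretion genes, 1 was higher in MEC2 and 1 higher and 1 lower in PCL12 against HG3, and 2 were higher in MEC2 than in PCL12 (median 0.05, 0.44 and -0.42). SDC1, a plasma-cell surface protein of the assembly and secretion list, was higher in MEC2 than in HG3 by 1.99 (SE 0.38) and than in PCL12 by 1.56 (SE 0.38). The 6 plasma-cell markers had 1 positive and 5 negative differences between MEC2 and HG3 (median -0.53) and 2 positive and 4 negative between MEC2 and PCL12 (median -1.06). They were not tested as a set. Of 9 other constant region rows tested, 3 were called between MEC2 and HG3, 4 between PCL12 and HG3 and 1 between MEC2 and PCL12. They included IGLC3, with 27595 to 86620 counts in HG3 and 6 or 0 in MEC2, and IGLL5, with 297 to 1432 counts in PCL12, 0 to 53 in MEC2 and 0 or 1 in HG3. IGLL5 was lower in MEC2 than in PCL12 by -6.29 (SE 1.01, adjusted p = 0.00147). The median of these 9 was -2.20, 3.54 and -1.76, beside 0 over all genes.

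The list values above use all 3 PCL12 replicates. The alternative with replicate 1 as the only PCL12 pair was chosen after seeing the data. It leaves a lone PCL12 library per group, so its calls cannot be set against those above. List medians between PCL12 and HG3 were 0.39 (class switch), 0.80 (transcription factors), 0.67 (receptor partners) and 0.50 (assembly and secretion), beside -0.03 over all genes. For the 9 other constant region rows the median was -3.82 in place of 3.54. Between MEC2 and PCL12 it was 0 in place of -1.76. In this fit SYK differed between PCL12 and HG3 by 2.05 (SE 0.48), above its value over 3 replicates. EXO1 (0.90, SE 0.43) and PAX5 (1.27, SE 0.44) lay below theirs. SDC1 between MEC2 and PCL12 was at 1.44 (SE 0.59, adjusted p = 0.354). After CpG in that pair, BATF was at 1.25 (SE 0.65) and ELL2 at 1.17 (SE 0.53), and no list gene was called.

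The genes whose levels were most like those of a member were taken over all 18 libraries among 9290 genes, by Pearson's r of log2 CPM. The libraries share 3 lines, so this ranks patterns across lines as much as across samples. IGHM was most like MZB1 (r = 0.93), a chaperone of IgM assembly, followed by PREB (0.92) and GMPPA (0.91). IGHD was most like BBC3 (0.97), PAX8-AS1 (0.96) and CD151 (0.96), and IGHG1 most like TMOD2 (0.96), IFNG-AS1 (0.96) and ERO1B (0.95). IGHA1 was most like TGFBR2 (0.96) and ATP2A3 (0.95), and the genes close to IGHA2 included GPAT2 (0.96) and TGFBR2 (0.96). IGKC was most like TRBC2 (0.99), SLC12A8 (0.99) and KDM5B (0.99), and IGLC2 most like MVP (0.98) and ZNF544 (0.97).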

How the data were processed

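The authors deposited 1 table of raw counts of reads per gene symbol, without normalization. The submitters' notes name FastQC, MultiQC, Trimmomatic, STAR, featureCounts and hg38; versions, annotation, strand setting and the handling of reads with several matches or of duplicates are not given in the sources used here. The study's methods state single reads from a stranded protocol, while the labels name a QuantSeq kit; for reads from the 3′ end, levels per kilobase and shares of repeated windows would not hold.

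Groups followed the labels, and no column was left out. Genes with at least 10 counts over the 18 libraries were kept (31872 of 42248 with a count). The deposited counts were fitted with edgeR 4.0.16 in R 4.3.3 (TMM factors, 1 mean for each of 6 groups, robust quasi-likelihood test, 12 residual degrees of freedom, edgeR's prior count of 0.125 for fold changes; SE is the log2 fold change over the square root of F), with Benjamini-Hochberg adjustment over all tested genes. limma 3.58.1, DESeq2 1.42.0, RLE factors, library totals, scaling without immunoglobulin and mitochondrial genes, other filters, a replicate block, PCL12 replicate 1 alone, fits of single lines and the removal of 1 library at a time were alternatives. limma-voom with the block, and PCL12 replicate 1 alone for the gene lists, were chosen after seeing the data. Shares and ratios were compared by exact permutation tests (scipy 1.17.1), with Clopper-Pearson limits for the ratio from 3 counts. The scripts were tested on simulated data. Sequences and positions are from GENCODE 44 on GRCh38.

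The members and gene lists were chosen with earlier results of these data known. All members are named; from each list up to 4 genes were eligible per comparison, by the smallest p past an adjusted p of 0.05, or up to 2 where none passed, and for each member with at least 10 CPM in a group the 3 most similar genes. A few of the genes that these rules select are not reported here.

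The series description pairs 1 stimulated with 1 unstimulated sample in each replicate. After removal of group means, libraries of the same number correlated across genes at 0.259, 0.212 and 0.480 in HG3, at 0.189, -0.0133 and 0.611 in MEC2 and at 0.607, 0.494 and 0.515 in PCL12.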

Additional observations from a re-analysis of the deposited data

How the results depend on the processing

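The number of members called stayed within 1.5 times of the reported one with DESeq2, limma-voom, RLE factors, library totals, scaling without immunoglobulin and mitochondrial genes, filterByExpr, no filter and without the libraries rich in mitochondrial counts. With the replicate block it was 1 in place of 0 for CpG in each line and for the difference between PCL12 and HG3, and 7 in place of 3 between unstimulated MEC2 and PCL12, where limma-voom with the block also gave 7; the block moved no other of the 9 counts by over 1.5 times. With PCL12 replicate 1 alone it was 4 in place of 7 (PCL12 against HG3) and 5 in place of 3 (MEC2 against PCL12). With 1 library left out, it was 4 to 5 (MEC2 against HG3), 5 to 7 (PCL12 against HG3), 3 to 3 (MEC2 against PCL12) and 0 to 0 in every CpG comparison and difference.

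Changes of sign concerned members that were not called. On the log2 scale, limma-voom gave 0.0038 for CpG on IGKC in PCL12 and 0.018 for IGHM in MEC2 against HG3, which was 0.038 with the replicate block and 0.031 with limma-voom and the block. Library totals gave 0.014 for IGHM and 0.0022 for IGHD in HG3 and -0.025 for IGHD in MEC2 after CpG, and the block gave -0.094 for IGHG3 in HG3. With PCL12 replicate 1 alone, IGHG4 was at -4.85 against HG3, a size set by the prior count since that library had 0 counts. Without the libraries rich in mitochondrial counts, CpG values were 0.013 for IGHD and 0.14 for IGLC2 in HG3, and 0.087 for IGHM, -0.86 for IGHA2, 0.0025 for IGKC and 0.35 for IGLC2 in MEC2. The cause was not tested.

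With 1 library left out, CpG values in HG3 spanned -0.60 to 0.40 for IGHM, -0.19 to 0.051 for IGHD, -4.25 to 4.89 for IGHG1, -3.17 to 5.80 for IGHG2, -1.38 to 0.88 for IGHG3, -0.14 to 1.99 for IGKC and -0.77 to 0.17 for IGLC2. In MEC2 they spanned -0.21 to 0.092 for IGHM, -0.23 to 0.25 for IGHD, -0.84 to 1.14 for IGHA2, -0.50 to 0.0089 for IGKC and -3.68 to 3.29 for IGLC2. In PCL12 they spanned -0.28 to 0.25 for IGHM, -0.58 to 0.12 for IGHD, -0.19 to 1.10 for IGHG2, -0.66 to 0.21 for IGHA1, -0.69 to 0.40 for IGHA2, -0.29 to 0.30 for IGKC and -0.24 to 0.96 for IGLC2. These fits hold no pairing, so leaving out 1 library also leaves its partner unpaired; the log2 CPM ratios (prior count 2) of IGLC2 within PCL12 replicates 1, 2 and 3 were 0.32, 0.36 and 0.34. Between unstimulated lines, MEC2 against HG3 spanned -0.47 to 0.32 for IGHM, -0.012 to 1.44 for IGHA1 and -1.12 to 0.061 for IGHA2, and MEC2 against PCL12 spanned -0.43 to 0.26 for IGHD.

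Counts of 0 to 22 for IGHG1, IGHG2 and IGHG4 in HG3, and of 0 to 4 for IGLC2 in MEC2, leave their fold changes open to a few reads.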
